A study of Mus musculus with 4 samples.

Results

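The genes described here are the nuclear genes for the proteins of the mitochondrial ribosome. They were taken as all rows of the deposited score tables whose symbol begins with Mrpl or Mrps followed by a number, with pseudogene rows left out. The rule gave 76 of the 23420 genes in the tables. Of these, 26 encode proteins of the small subunit and 49 proteins of the large subunit, including Mrps30 and Mrps18a, which carry small subunit names. The remaining one, Mrps36, keeps a ribosomal name although its product is now known as a part of the 2-oxoglutarate dehydrogenase complex.

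The mitochondrial ribosome translates the few messages of the mitochondrial genome, all of which encode subunits of the respiratory chain or of ATP synthase. Its rRNAs are made inside the organelle, while all of its proteins are encoded in the nucleus, made in the cytosol and imported. Many of these proteins descend from the bacterial ribosome, and others were added in mitochondria. Aminoglycosides such as gentamicin kill bacteria by binding the decoding site of the bacterial small subunit rRNA, and the mitochondrial ribosome has long been discussed as a target of these drugs in the hair cells of the inner ear.

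The study cultured cochleae of postnatal day 1 mice of an Atoh1-GFP transgenic line on a CD1 background, in which GFP is driven by an Atoh1 enhancer and marks hair cells. Cultures received either 0.5 mM gentamicin for 3 h or no drug, and were then sorted into GFP positive hair cells and GFP negative non-hair cells. This gave control hair cells, gentamicin-treated hair cells, control non-hair cells and gentamicin-treated non-hair cells, each with 3 replicates. All groups carried the transgene and had spent a night in culture, cells with weak GFP were gated out, and the non-hair cells are a mixture of supporting cells and surrounding tissue. Polyadenylated RNA was sequenced, and a score was deposited for each gene and replicate. The scores behave as reads multiplied by one factor per replicate, with 1 added, and carry no division by gene length. Differences are therefore given as log2 differences of scores, and levels of different genes are compared only after division by transcript length. The paper calls the replicates biological, but which cultures or animals went into each is not given, so the p-values measure the spread between these replicates.

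Between 22400577 and 28152173 reads fell on genes in each replicate. All 76 members passed the minimum of 100 reads over the 12 replicates, and the thinnest of them, Mrpl47, still had 3189. The 8 hair cell markers checked were all higher in control hair cells than in control non-hair cells, with summed scores of 11724–12183 against 297–323. Marker sums also moved with gentamicin in the hair cell gate. The hair cell markers summed to 9818–10894 after gentamicin, below every control, with 0 of the 8 called. Mesenchyme markers went from 176–346 in control hair cells to 123–156 after gentamicin, macrophage markers from 1.61–3.12 to 11.9–17.7, and supporting cell markers from 1617–1962 to 731–1377. Schwann cell markers went from 165–207 to 76.9–139 and endothelial markers from 9.91–15.5 to 5.94–9.67, while red blood cell markers overlapped, at 0.513–1.46 and 0.369–7.61. For macrophages the whole list stayed below the 22.2–39.9 of control non-hair cells. The supporting cell list summed to only 1069–1604 in control non-hair cells, below control hair cells. Of its 8 genes, 3 were called higher and 1 lower in control hair cells, so its sum does not track supporting cells in the gate. The part of these shifts in the results below was not tested. In such bulk samples, fewer cells of one type and less RNA per cell cannot be told apart.

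The stretches of DNA ahead of the genes come first, since they are the regulatory sequence the members might share. RefSeq promoters (assembly GRCm38.p6, 250 bases before to 50 after the start) were at hand for 67 members, with 73 promoters because 3 members had more than one. Short motifs were searched on both strands. CCGGAA, the core bound by ETS family factors, was present in 56.2% of the members' promoters, against 14.9% of all promoters in the table and 23.5% of promoters of the genes tested. AAGATGGCG, bound by YY1, was present in 11.0% of the members' promoters against 1.40% of all promoters and 2.44% of those of the genes tested, and GCGCATGCG, bound by NRF1, in 9.59% against 1.75% and 3.12%. These 3 motifs are textbook elements of nuclear genes for mitochondrial proteins. GGGCGG, the GC box, was in 52.1% of the members' promoters and in 59.1% of those of the genes tested, and CCAAT, bound by NF-Y, in 41.1% and 37.2%. CACGTG, the E-box, TGACGTCA, bound by CREB, and TATAAA, the TATA box, were each in under 10% of the members' promoters. Matches to different motifs overlapped each other in 2 of the 73 promoters. A match is only a run of letters and was not tested as a binding site.

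**Figure D1:**
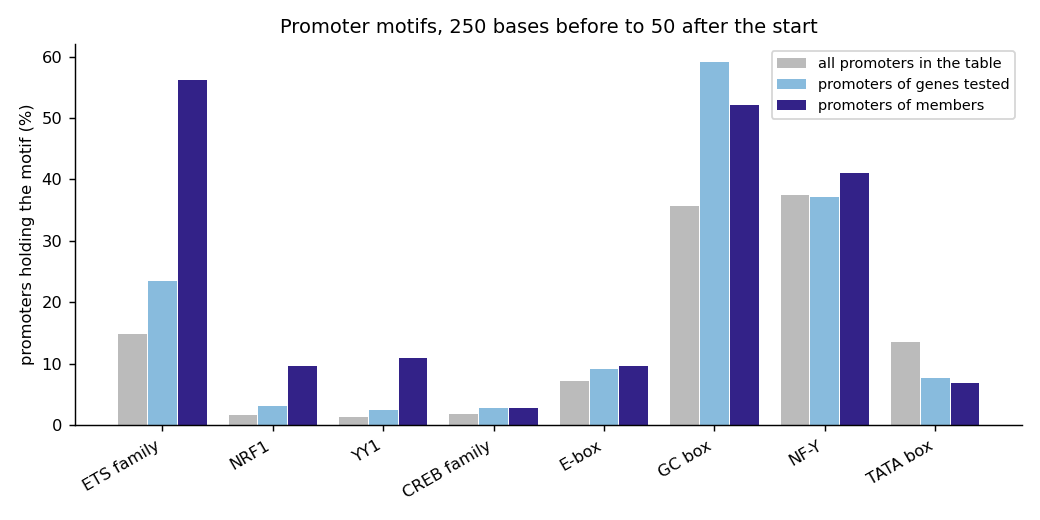
Share of promoters, in percent, that hold each motif on either strand: all promoters in the RefSeq table (grey), promoters of the genes tested (light blue) and promoters of the mitochondrial ribosomal protein genes (dark blue). The ETS family motif stands at 56.2% in the members against 23.5% in the genes tested, while GC box and NF-Y shares are close between these groups.

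A set of 6 stretches is printed for members that later results turn on, each cut to bases that no annotated exon covers, 5′ to 3′ on the strand of the gene, with the motifs above in capitals. Mrps22 and Mrpl16 rose with gentamicin in hair cells, Mrpl10 and Mrpl23 fell, and Mrps6 and Mrps12 were higher in control hair cells than in control non-hair cells.
Mrps22 (chr9:98601680-98601829, minus strand): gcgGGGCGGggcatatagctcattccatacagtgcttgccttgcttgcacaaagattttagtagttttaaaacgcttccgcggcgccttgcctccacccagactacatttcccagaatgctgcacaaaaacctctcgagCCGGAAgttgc
Mrpl16 (chr19:11770241-11770390, plus strand): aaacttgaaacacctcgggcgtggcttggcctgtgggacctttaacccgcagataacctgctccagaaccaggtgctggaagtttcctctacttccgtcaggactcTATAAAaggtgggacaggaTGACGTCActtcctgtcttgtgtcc
Mrpl10 (chr11:97041410-97041559, plus strand): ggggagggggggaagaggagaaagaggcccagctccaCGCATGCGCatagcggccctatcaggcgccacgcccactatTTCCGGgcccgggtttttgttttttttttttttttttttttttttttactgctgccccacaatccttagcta
Mrpl23 (chr7:142532862-142533011, plus strand): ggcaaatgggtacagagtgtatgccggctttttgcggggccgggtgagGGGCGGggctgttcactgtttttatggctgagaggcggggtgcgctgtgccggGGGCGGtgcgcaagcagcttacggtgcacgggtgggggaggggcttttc
Mrps6 (chr16:92058120-92058269, plus strand): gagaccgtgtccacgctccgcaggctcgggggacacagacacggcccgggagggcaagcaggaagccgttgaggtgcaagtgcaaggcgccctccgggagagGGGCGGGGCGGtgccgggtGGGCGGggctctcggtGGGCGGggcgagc
Mrps12 (chr7:28741822-28741971, minus strand): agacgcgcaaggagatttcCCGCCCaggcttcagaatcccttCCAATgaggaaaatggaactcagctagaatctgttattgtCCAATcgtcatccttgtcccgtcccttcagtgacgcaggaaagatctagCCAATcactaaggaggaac
The Mrps22 stretch ends in an ETS motif 11 bases before the start. The Mrpl16 stretch holds a TATA box 68 and a CREB motif 49 bases before the start, the Mrpl10 stretch an NRF1 motif at 135 and an ETS motif at 94. The Mrpl23 stretch shows GC boxes only, and so does that of Mrps6, while Mrps12 has 3 NF-Y motifs and 1 GC box. Of the 13 members with a promoter that rose in hair cells, 9 held the ETS motif, and of the 4 that fell, 1 did. Since 38 of all 67 members held it, and the groups are small, these counts are a description.

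In untreated cells the levels of the members spanned a wide range. Per kilobase of transcript, taking the median length of the annotated transcripts, control hair cells ranged from 2.85 normalized reads for Mrpl47 to 130.9 for Mrps6, with a median of 25.2. The highest were Mrps6, at 130.9 ± 10.1 (SD, n = 3), Mrpl30 at 88.7 ± 7.25, Mrpl17 at 71.4 ± 3.03 and Mrps21 at 66.1 ± 3.11 normalized reads per kilobase. Mrpl17 and Mrps21 differed by less than the sum of their SDs, and the other steps in this order were larger than that. The lowest were Mrpl47 at 2.85 ± 0.462, Mrpl1 at 4.33 ± 0.325, Mrpl35 at 5.06 ± 0.0437 and Mrps26 at 5.89 ± 0.284. Levels per kilobase depend on the transcript chosen: with the longest annotated transcript Mrpl17 fell to 7.27, and with the shortest Mrpl1 rose to 9.60.

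The first comparison asks how hair cells differ from their neighbours before any drug. The small subunit genes Mrps5 and Mrps6 stood apart from all other members. Mrps5 encodes a protein near the decoding centre of the small subunit and lies on chromosome 2, 127587222–127606829 (mm10). Its score was 124.7, 122.8 and 117.4 in hair cells without the drug and 39.1, 36.9 and 36.6 in control non-hair cells. All hair cell replicates were more than 3 times any non-hair cell replicate, a log2 difference of 1.70 ± 0.06 (SE; adjusted p = 4.71e-10). Mrps6, whose product sits on the platform of the small subunit, scored 119.9, 112.4 and 102.8 in control hair cells and 41.0, 34.0 and 42.3 in control non-hair cells. The groups were again far apart, with a log2 difference of 1.52 ± 0.10 (adjusted p = 8.99e-08). Mrps6 (chromosome 16, 92058270–92112227) shares exon sequence with Slc5a3, a myo-inositol transporter gene, and with a predicted gene, and the strand used in counting is not given, so reads of one may be counted in the other. Slc5a3 scored 63.1–78.0 in control hair cells and 41.2–63.8 in their non-hair counterparts (log2 0.42 ± 0.16, adjusted p = 0.0316). Mrps5 overlaps no other coding exon.

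Over all members, 15 were called higher and 15 lower in control hair cells (adjusted p under 0.05 and fold change over 1.2), against 30.2% of all 16088 genes tested called higher and 40.9% called lower. The members' shares, 19.7% each way, were below both, and the remaining 46 members were not called. The median difference of the members was 0.01 (log2) and that of all genes tested was -0.12. Scaling by median ratios moved the latter to -0.01 and the members to 0.13. It called 28 members higher and 10 lower, beside 35.1% and 36.7% of all genes tested. Differences no larger than that shift therefore depend on the scaling. Counting by subunit, 9 of 26 small subunit members were called higher and 5 lower, and 6 of 49 large subunit members higher and 10 lower.

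Among small subunit genes higher in hair cells, Mrps11, another platform protein, scored 28.3–29.9 in hair cells and 16.8–20.9 in non-hair cells (log2 difference 0.63 ± 0.14, adjusted p = 0.00176). Its exons overlap those of Mrpl46, itself a member, which differed by 0.21 ± 0.12 and was not called. Mrps12, the counterpart of the bacterial protein in which streptomycin resistance arises, scored 37.0, 34.2 and 36.3 in hair cells and 25.4, 20.4 and 26.1 in non-hair cells. The lowest hair cell replicate lay above the highest non-hair cell replicate, and the log2 difference was 0.59 ± 0.11 (adjusted p = 0.000361). On the other side stood large subunit genes. Mrpl4, which lines the exit tunnel for the new chain, scored 25.3–28.3 in hair cells and 41.2–50.3 in non-hair cells (log2 -0.74 ± 0.10, adjusted p = 2.53e-05). Mrpl10, the anchor of the stalk that receives translation factors, scored 32.5–35.7 against 50.01–65.1 (log2 -0.68 ± 0.10, adjusted p = 6.3e-05). Mrpl23, at the mouth of the exit tunnel, scored 18.9–21.8 against 28.3–34.0 (log2 -0.58 ± 0.12, adjusted p = 0.000747). The mitochondria-specific Mrpl53 scored 16.0–16.8 against 22.8–26.5 (log2 -0.57 ± 0.11, adjusted p = 0.000668), and its exons overlap a predicted gene. Separate replicates were part of the rule by which these genes were named. Over all 16088 genes tested, every hair cell replicate was higher in 5550 and lower in 7181.

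The 3 genes of the Mrps18 family, relatives of one bacterial protein, all had mean scores below those of non-hair cells, and their differences were not compared with each other. Mrps18b scored 12.6–14.0 in hair cells and 16.5–20.5 in non-hair cells and was called lower (log2 -0.45 ± 0.11, adjusted p = 0.0022). Mrps18a, at 23.2–27.3 against 25.7–30.7, and Mrps18c, at 11.5–12.97 against 12.8–17.4, overlapped between the populations and were not called (log2 -0.17 ± 0.11 and -0.22 ± 0.14). Mrps36 scored 20.3–20.7 against 20.4–22.5 and was not called either (log2 -0.08 ± 0.09).

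**Figure D2:**
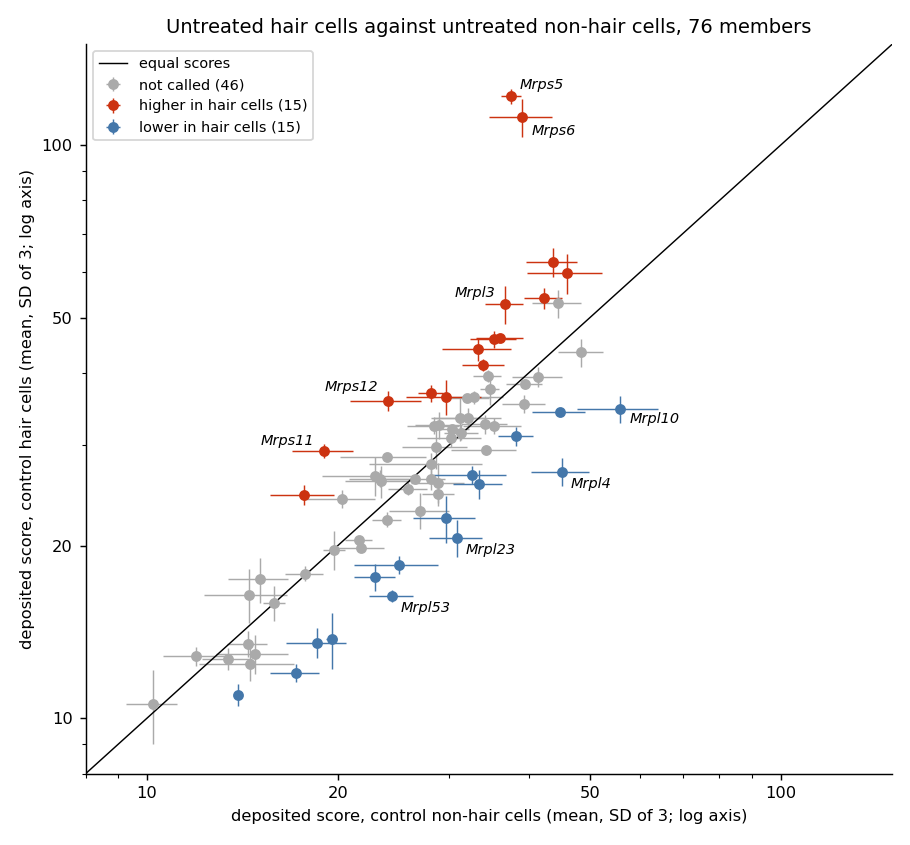
Deposited score of each of the 76 members in control non-hair cells (x axis) and control hair cells (y axis), both log axes, as mean and SD of 3 replicates. The points lie along the line of equal scores except Mrps5 and Mrps6, which sit about 3 times above it; 15 members are called higher (red) and 15 lower (blue).

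The cytosolic ribosome went another way in the same comparison. Of 79 cytosolic ribosomal protein genes tested, 78 were called lower in control hair cells and 0 higher, with a median log2 difference of -0.92. Respiratory chain subunit genes were called higher for 32 of 81 (39.5%) and lower for 9 (11.1%), with a median of 0.20. The members of the mitochondrial ribosome, with their median of 0.01 and as many calls up as down, lay between these. All genes tested had a median of -0.12, with 30.2% called higher and 40.9% lower.

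The second comparison asks what gentamicin did to these genes in hair cells within 3 h. More members rose than fell. Of the 76, 14 were called higher and 4 lower (unadjusted p under 0.01 and fold change over 1.2, the criteria of the study), against 12.7% of all genes tested called higher and 14.8% called lower. The members' shares were 18.4% and 5.26%, and 58 were not called. By an adjusted p under 0.05 with no fold threshold, the counts were 16 and 4, beside 2374 and 2959 of all 16088 genes tested. The median difference of the members was 0.08 (log2) and that of all genes tested -0.09. The scores of all members summed to 2250.15–2352 in the 3 control replicates and 2359–2510.03 in the treated ones, which narrowly did not overlap. The median log2 score of the members in each replicate did overlap, at 4.821–4.853 in control and 4.849–4.924 in treated hair cells.

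Scaling by total reads in place of the deposited factors gave 23 members higher and 2 lower, with medians of 0.18 for the members and -0.01 for all genes. Over all genes tested the calls moved the same way, to 17.2% higher and 9.89% lower. A set of 10 members stayed called higher in every fit with another scaling, offset, minimum, block or sample left out. They were Mrpl1, Mrpl9, Mrpl16, Mrpl17, Mrpl37, Mrpl44, Mrps22, Mrps26, Mrps30 and Mrps31. Of the 4 called lower, only Mrpl14 did so.

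**Figure D3:**
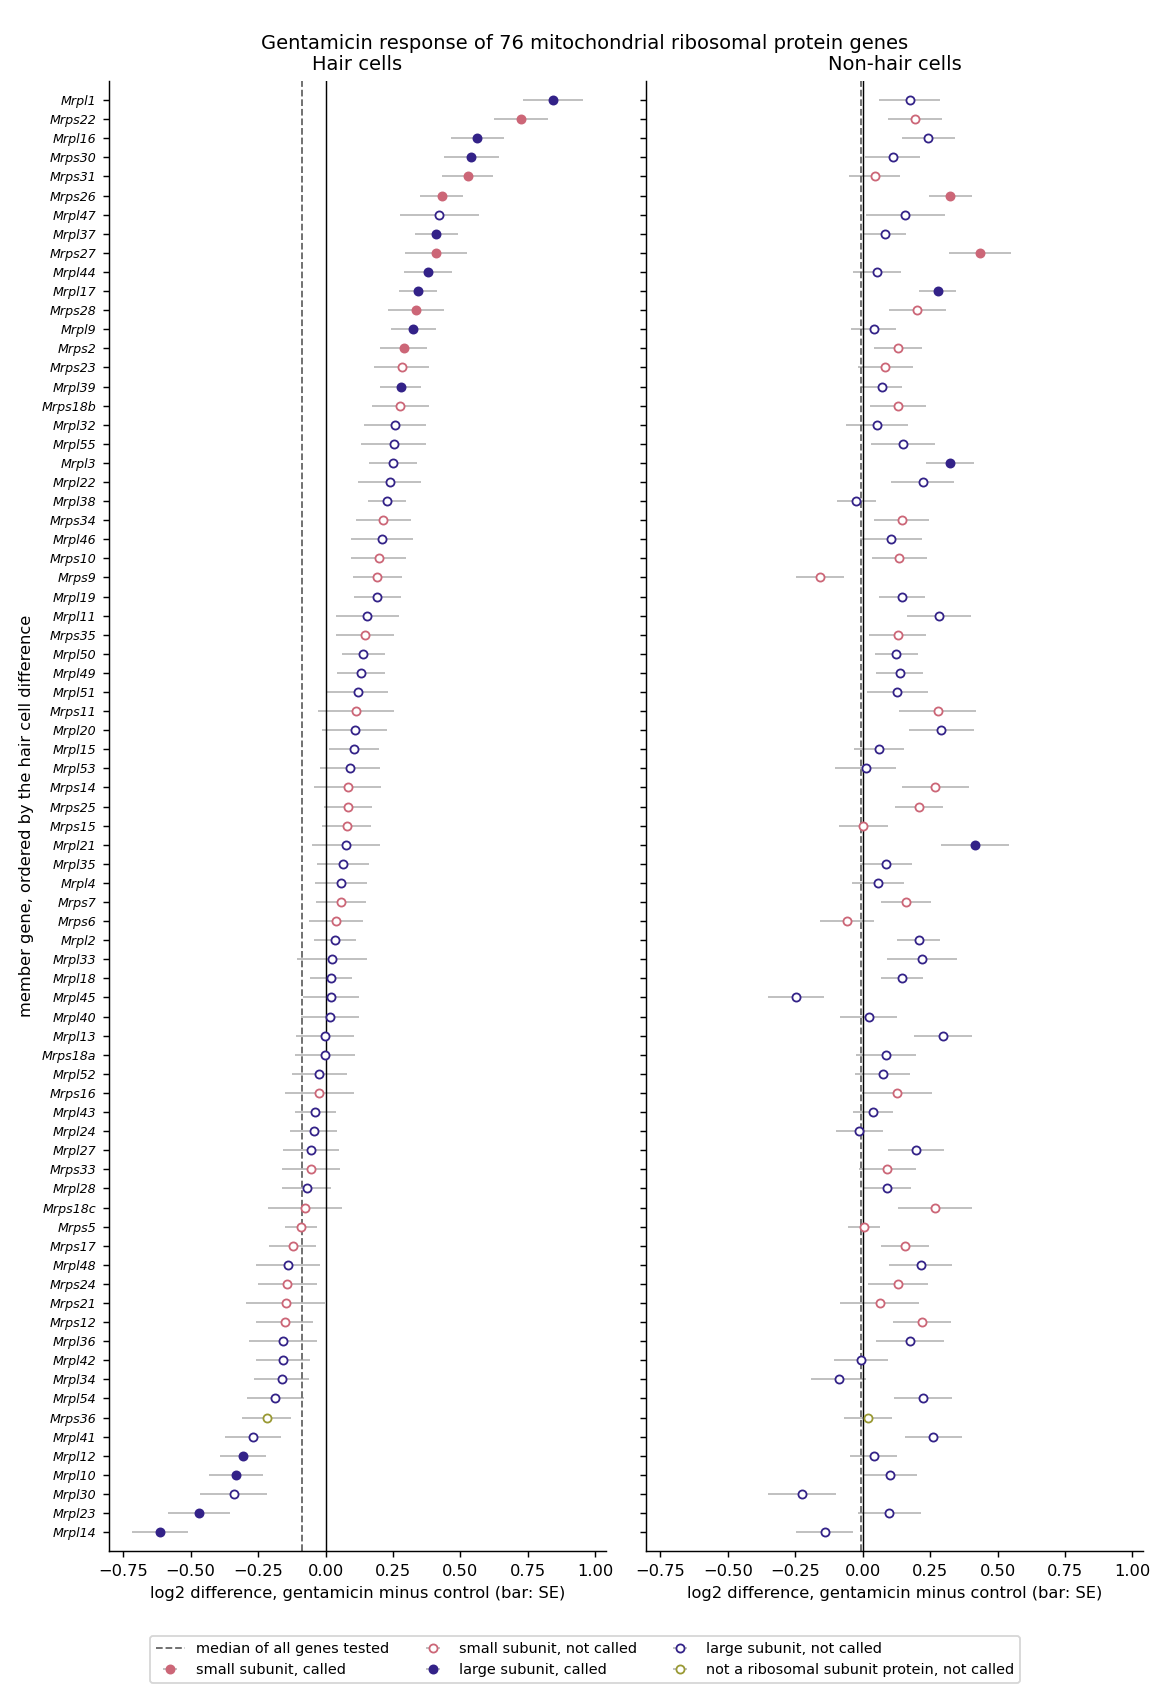
Log2 difference between gentamicin and control for each of the 76 members in hair cells (left) and non-hair cells (right), in the order of the hair cell difference, with SE bars. Filled points passed the criteria: 14 higher and 4 lower in hair cells, 5 higher and 0 lower in non-hair cells; dashed lines mark the median of all genes tested, -0.09 and -0.01.

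The largest rise was that of Mrpl1, whose product forms the mobile L1 stalk, which guides the spent tRNA out of the ribosome. The gene lies on chromosome 5, 96209493–96266727. Its score was 16.5, 14.6 and 16.6 in control hair cells and 30.2, 30.4 and 25.04 after gentamicin. The lowest treated replicate was well above the highest control, and the log2 difference was 0.84 ± 0.11 (SE; adjusted p = 0.000353). In non-hair cells Mrpl1 started from the same level, 15.1–16.4, and scored 15.9–19.1 after gentamicin (log2 0.17 ± 0.11, not called).

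Mrps22 followed, a small subunit protein without a bacterial counterpart, on chromosome 9, 98588730–98601660. Its score was 13.2, 12.7 and 12.2 in control hair cells and 22.4, 20.2 and 20.4 after gentamicin. Again the groups were apart by more than their width, at a log2 difference of 0.72 ± 0.10 (adjusted p = 0.000428). Mrpl16, which lies close to the peptidyl transferase centre, went from 10.5–11.4 to 15.4–17.5 (log2 0.56 ± 0.10, adjusted p = 0.00165). Mrps30, a large subunit protein in spite of its symbol, went from 31.8, 31.8 and 32.1 to 48.1, 51.5 and 40.2. Its controls were nearly identical and its treated replicates spread, with a log2 difference of 0.54 ± 0.10 (adjusted p = 0.00246). Mrps30 overlaps exons of one other coding gene, B430218F22Rik, which has no row in the tables. Mrps31, of the small subunit, went from 17.3–18.4 to 25.2–26.7 (log2 0.53 ± 0.09, adjusted p = 0.00191).

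The other 9 members called higher rose by 0.28 to 0.43 on the log2 scale. They were Mrps26, Mrpl37, Mrps27, Mrpl44, Mrpl17, Mrps28, Mrpl9, Mrps2 and Mrpl39. In all 14 the treated replicates lay above every control replicate, as in 29 of the 76 members and 3496 of all 16088 genes tested. Some of these calls were narrow. Mrps2 and Mrps28 were not called in any of the 6 fits that left out 1 hair cell replicate, with log2 differences of 0.25–0.32 and 0.30–0.37. Mrps2 was also lost in the fit blocked by replicate number, and Mrps28 when the hair cells were fitted alone. Mrps27 was called only without control replicate 2 (log2 0.32–0.48 over the 6 fits), and Mrpl39 only without control replicate 3 or gentamicin replicate 2 (0.25–0.31). Mrpl47 came close, at 8.79–11.6 before and 12.8–15.1 after gentamicin (log2 0.42 ± 0.15, adjusted p = 0.046), and was not called by the unadjusted p. Its exons overlap those of Actl6a and Ndufb5, which differed by 0.21 ± 0.08 and -0.17 ± 0.09 and were not called.

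All 4 members that fell belong to the large subunit and have bacterial counterparts. Mrpl14, at the interface of the subunits, scored 29.05, 30.04 and 28.97 in control hair cells and 20.3, 20.6 and 16.8 after gentamicin. Every treated replicate was lower than every control, a log2 difference of -0.61 ± 0.10 (adjusted p = 0.00141). It lies on chromosome 17, 45686322–45698495, and its exons overlap those of Tmem63b, which also fell, from 319.2–321.7 to 228.4–259.8 (log2 -0.38 ± 0.12, adjusted p = 0.0264). With the strand of counting not given, reads of these genes cannot be fully told apart. Mrpl23 scored 21.8, 21.2 and 18.9 before and 15.8, 15.6 and 13.3 after gentamicin (log2 -0.47 ± 0.12, adjusted p = 0.00993).

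Mrpl10 and Mrpl12 form the stalk on which translation factors land, and both fell. Mrpl10 scored 35.7, 32.5 and 35.7 in control hair cells and 26.7, 26.8 and 29.1 after gentamicin (log2 -0.33 ± 0.10, adjusted p = 0.0244). Mrpl12 scored 44.7, 45.0 and 40.7 before and 35.8, 33.4 and 36.1 after (log2 -0.31 ± 0.09, adjusted p = 0.0187). Replicates did not overlap in either gene. These calls were the weaker ones. Without control replicate 1 or gentamicin replicate 2 both were lost, which left 2 members called lower, beside 12.4% and 11.3% of all genes tested. Mrpl10 was also lost without control replicate 3 or gentamicin replicate 1 (log2 -0.38 to -0.31 over the 6 fits), and Mrpl12 without control replicate 2 (-0.35 to -0.27). Both were also lost with total reads scaling and with voom, limma's method for reads, and Mrpl23 was lost with voom.

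**Figure D4:**
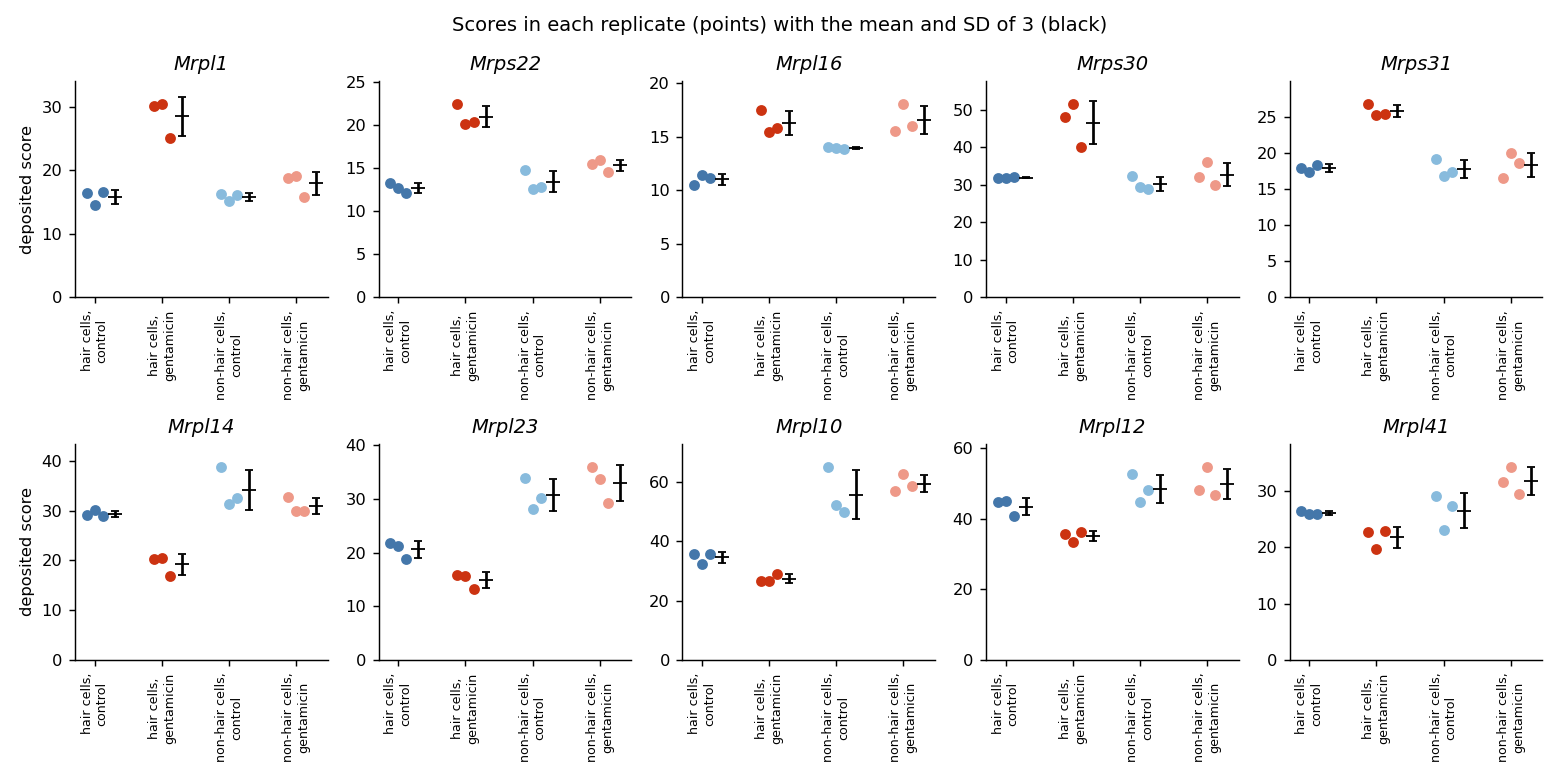
Deposited score in each replicate (points) for 10 members in the 4 groups, with the mean and SD of 3 replicates in black; each panel starts at 0. In the upper row the gentamicin-treated hair cells stand above all control hair cells, as for Mrpl1 (25.04–30.4 against 14.6–16.6), and in the lower row below them, as for Mrpl14 (16.8–20.6 against 28.97–30.04).

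By subunit, 6 of 26 small subunit members rose and 0 fell, while 8 of 49 large subunit members rose and 4 fell. By origin, 8 of 29 mitochondria-specific members rose and 0 fell, against 6 and 4 of the 46 with a bacterial counterpart. This split counts Mrps18a and Mrps18b as mitochondria-specific and only Mrps18c as the bacterial counterpart, and neither Mrps18a nor Mrps18b was among those that rose. The median differences of these groups were 0.10, 0.06, 0.14 and 0.06 (log2) in that order. Beside these counts and medians stand 12.7% of all genes tested called higher, 14.8% called lower and a median of -0.09. Whether the groups differed from each other was not tested. Leaving out the 23 members whose exons overlap another coding gene kept 11 of 53 higher and 3 lower, with a median of 0.08. The genes nearest the decoding centre did not pass the test. Mrps5 scored 117.4–124.7 before and 108.2–117.4 after gentamicin (log2 -0.09 ± 0.06), and Mrps12 34.2–37.0 and 29.2–34.5 (log2 -0.15 ± 0.11). Mrps6 stayed high in both groups, at 102.8–119.9 and 108.4–119.6 (log2 0.04 ± 0.10), while Slc5a3, which shares its exons, fell (log2 -0.69 ± 0.16, adjusted p = 0.00771). In the Mrps18 family, Mrps18b differed by 0.28 ± 0.11, Mrps18a by -0.0030 ± 0.11 and Mrps18c by -0.08 ± 0.14, and none was called. Mrps36, outside the ribosome, scored 20.3–20.7 before and 16.0–19.2 after gentamicin (log2 -0.22 ± 0.09, adjusted p = 0.0836).

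The genes that build and serve the mitochondrial ribosome were counted beside the members. Of 25 genes for its assembly and rRNA modification, 15 rose in gentamicin-treated hair cells (60%) and 0 fell. Beside these stand 12.7% and 14.8% of all genes tested, and the median log2 difference of the 25 was 0.39. The largest rise was in Ddx28, an RNA helicase for large subunit assembly, which scored 20.5, 18.3 and 19.9 in control hair cells and 35.8, 42.1 and 36.9 after gentamicin. That is a log2 difference of 0.96 ± 0.11 (adjusted p = 0.000139), with every treated replicate far above the controls. Rnmtl1, which methylates the large subunit rRNA, went from 7.99–9.25 to 14.4–15.8 (log2 0.82 ± 0.12), and Nsun4, a methyltransferase of the small subunit rRNA, from 15.6–18.4 to 24.5–31.5 (log2 0.70 ± 0.12). In non-hair cells 2 of the 25 rose (8%) and 0 fell, beside 3.18% and 2.26% of all genes tested. By the direct test 6 of the 25 (24%) had a higher response in hair cells, beside 6.85% of all genes tested. Ddx28 did so by 0.87 (log2, adjusted p = 0.0061).

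A further 7 proteins of the ribosome carry other symbols, and of these Ptcd3 and Gadd45gip1 rose and Mrp63 fell. That is 28.6% higher and 14.3% lower, beside 12.7% and 14.8% of all genes tested. Ptcd3, of the small subunit, went from 48.6–55.7 to 73.9–90.8 (log2 0.70 ± 0.09, adjusted p = 0.000292). Gadd45gip1, of the large subunit, went from 53.3–56.8 to 70.3–78.0 (log2 0.44 ± 0.08, adjusted p = 0.00223). Mrp63, also of the large subunit, went from 31.9–34.4 to 25.7–28.3 (log2 -0.31 ± 0.09, adjusted p = 0.0159).

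Of 13 mitochondrial translation factors, 2 rose (15.4%) and 1 fell (7.69%), beside 12.7% and 14.8% of all genes tested. Those that rose were the release factor genes Mtrf1l, from 12.5–15.4 to 23.6–26.9 (log2 0.86 ± 0.14, adjusted p = 0.000893), and Mtrf1, from 4.43–4.81 to 6.67–7.39 (log2 0.62 ± 0.15, adjusted p = 0.00845). Mtfmt, which formylates the initiator tRNA, fell from 19.8–21.8 to 15.3–16.6 (log2 -0.35 ± 0.10, adjusted p = 0.025). Of 6 genes for mitochondrial transcription and RNA stability, 3 rose (50%) and 0 fell. These were the transcription initiation factors Tfb2m (log2 0.69 ± 0.08) and Tfam (log2 0.46 ± 0.09) and the elongation factor Tefm (log2 0.64 ± 0.13), whose replicates did not overlap between control and treated hair cells. Mitochondrial rRNA was not analysed here.

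The cytosolic ribosomal protein genes and the respiratory chain genes did not share this direction. Of 79 cytosolic genes tested, 0 rose and 28 fell (35.4%), with a median log2 difference of -0.45. Of 81 respiratory chain genes 0 rose and 12 fell (14.8%), with a median of -0.19. Over all genes tested 12.7% rose and 14.8% fell, so the share of respiratory chain genes that fell was that of all genes. These medians stand beside 0.08 for the members and -0.09 for all genes tested.

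**Figure D5:**
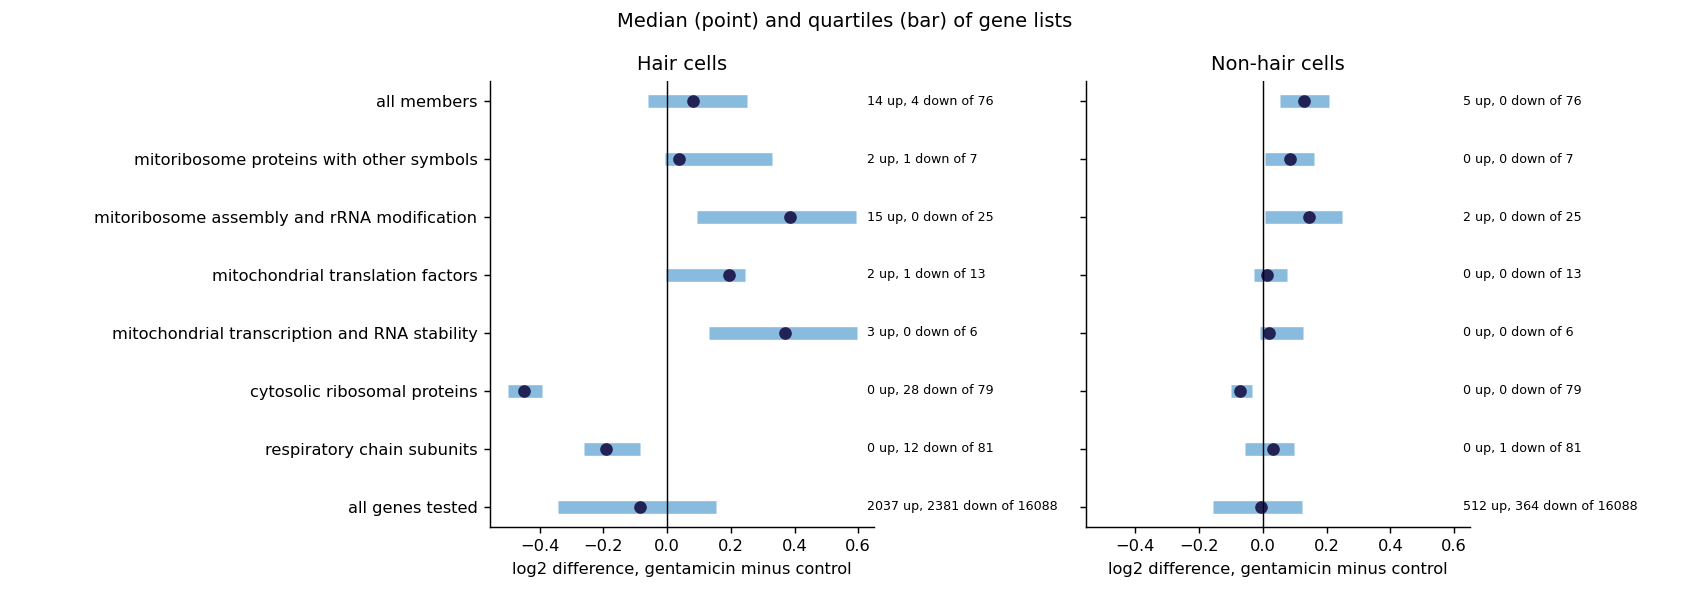
Median (point) and quartiles (bar) of the log2 difference between gentamicin and control over the tested genes of each list, for hair cells (left) and non-hair cells (right), with the counts that passed the criteria. In hair cells the assembly list has its median at 0.39 and the cytosolic ribosomal proteins at -0.45, while in non-hair cells all medians lie between -0.07 and 0.14.

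The third comparison gives the gentamicin response of non-hair cells. Of the 76, 5 were called higher (6.58%) and 0 lower, against 3.18% of all genes tested called higher and 2.26% called lower. None of the 5 had an adjusted p under 0.05 in limma, where they ranged from 0.0971 to 0.142. An unadjusted p under 0.05 was found for 13 of the 76 members and for 2754 of all 16088 genes tested. The median difference of the members was 0.13 (log2) and that of all genes tested -0.01. A positive difference was seen in 67 of 76 members and in 7853 of all 16088 genes tested. The sum over all members overlapped between the groups, however, at summed scores of 1940.25–2307 before and 2095–2412 after gentamicin. Replicates differed more here, with a median SD of 0.13 (log2) per member in both groups of non-hair cells against 0.06 in control hair cells.

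The members called higher were Mrps27, Mrpl21, Mrps26, Mrpl3 and Mrpl17. Mrps27, a small subunit protein of the mitochondria-specific kind, scored 19.8, 19.1 and 19.8 in control non-hair cells and 25.5, 30.8 and 23.7 after gentamicin (log2 0.44 ± 0.12). Mrpl21 scored 17.0, 12.9 and 13.5 before and 18.9, 20.5 and 18.2 after (log2 0.42 ± 0.13), and its exons overlap those of Ighmbp2, which differed by 0.19 ± 0.10. Mrps26 went from 27.7–28.7 to 31.7–38.1 (log2 0.33 ± 0.08) and Mrpl3 from 34.2–39.2 to 41.3–50.4 (log2 0.32 ± 0.09). Treated and control replicates did not overlap in any of the 5. Treated replicates lay above every control in 9 of the 76 members and 1620 of all 16088 genes tested. Mrpl17, Mrps26 and Mrps27 were also called higher in hair cells, which is 3 of the 14 called there and 3 of the 5 called here.

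These calls depended on which replicates were in the fit. Leaving out 1 non-hair cell replicate gave between 1 and 8 members called higher, and fitting the non-hair cells alone gave 0. The share of all genes called higher moved with the fits that left out a replicate, from 1.58% without control replicate 2 to 4.54% without gentamicin replicate 3. With the non-hair cells fitted alone it was 1.43%. The count of members was 1 without control replicate 2 or gentamicin replicate 2, and 2 without control replicate 3 or gentamicin replicate 1. It was 8 without control replicate 1 or gentamicin replicate 3. None of the 5 kept its call in all 6 fits that left out a replicate. Over those fits the log2 difference was 0.33–0.52 for Mrps27, 0.34–0.54 for Mrpl21, 0.27–0.40 for Mrps26, 0.26–0.40 for Mrpl3 and 0.25–0.33 for Mrpl17. Without gentamicin replicate 1, 1 member was called lower, beside 2.13% of all genes tested.

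The last comparison tests directly whether the response differed between hair cells and non-hair cells. At an adjusted p under 0.05, 3 members had a higher and 2 a lower response in hair cells, against 6.85% and 6.56% of all genes tested. The members' shares, 3.95% and 2.63%, were below these. Mrpl1 rose more in hair cells by 0.67 ± 0.16 (log2; adjusted p = 0.0203), Mrps22 by 0.53 ± 0.14 (adjusted p = 0.0321) and Mrps31 by 0.48 ± 0.13 (adjusted p = 0.0373). In non-hair cells Mrps31 scored 16.8–19.1 before and 16.5–19.9 after gentamicin.

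Mrpl23 and Mrpl41 went the other way, with responses lower in hair cells by 0.57 ± 0.16 (log2 -0.57, adjusted p = 0.041) and by 0.53 ± 0.15 (log2 -0.53, adjusted p = 0.0371). In non-hair cells Mrpl23 scored 28.3–34.0 before and 29.3–36.0 after gentamicin. Mrpl41, a mitochondria-specific large subunit protein on chromosome 2, 24974117–24975098, was called in neither population on its own. It scored 26.5, 25.9 and 25.9 in control hair cells and 22.6, 19.7 and 22.9 after gentamicin. In non-hair cells it scored 28.99, 23.1 and 27.3 before and 31.4, 34.2 and 29.3 after, so that both populations separated by treatment, in opposite directions. For Mrpl14, Mrps30 and Mrpl16, which changed in hair cells, the difference between the responses had adjusted p-values of 0.0569, 0.0715 and 0.148, so their responses were not shown to differ between the populations.

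None of the 5 interaction calls held in all 12 fits that left out 1 replicate. Mrpl1 was lost only without hair cell control replicate 2 or hair cell gentamicin replicate 2 (log2 0.58–0.76 over the 12 fits), and Mrpl23, Mrpl41, Mrps22 and Mrps31 kept their calls in 3, 3, 4 and 3 of them. With the replicate number as a block, the call of Mrps31 was lost. With total reads scaling, 7 members had a higher and 0 a lower response in hair cells, beside 9.32% and 4.45% of all genes tested.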

How the data were processed

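RNA of sorted cells was sequenced as single-end reads, which the authors aligned to mm10 with TopHat 2 in Partek Flow according to the labels and the paper's methods. The deposited values were given the unit score: the authors' methods speak of RPKM, but the deposited scores equal reads times a factor per replicate plus 1, without division by length, and how the authors set the factor and whether counting used strand are not given in the sources used here. Since not nearly all low values came out as whole reads (tolerance 0.02 reads), no count test was the main result. Reads were recovered by undoing factor and offset, and genes with at least 100 over the 12 replicates (16088) were tested with limma 3.58.1 (R 4.3.3), with a trend, on log2 scores, in a model of all 4 groups. Adjusted p-values are Benjamini-Hochberg over all genes tested. Gentamicin calls needed a fold change over 1.2 with an unadjusted p under 0.01, calls between control populations an adjusted p under 0.05 and the same fold change, and differences between responses an adjusted p under 0.05. Errors are SE for differences and SD for levels (n = 3).

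Named members were a fixed set (Mrps5, Mrps12, Mrps18a, Mrps18b, Mrps18c, Mrps30, Mrps36 and Mrpl12), up to 4 per comparison and direction with the largest called difference, non-overlapping replicates and a higher group averaging 5 or more, and the 4 highest and 4 lowest per kilobase in control hair cells. From each other gene list, up to 3 called genes per direction were named. Mrpl39, Mrpl47, Mrpl46, the neighbours that share exons, and members given only by name were added after their values were seen. The members, lists and rules were chosen with earlier results of these data known. Gene positions came from GENCODE M21 and promoters from RefSeq on GRCm38.p6. Alternatives were other scalings, voom on recovered reads, another offset, other minimums, a replicate block, fitting the compared groups alone, other call rules and leaving out each replicate. Replicate numbers come from the column headers. Deviations of same-numbered replicates from their group means correlated at 0.22, 0.32 and 0.20 between the control populations. Between the treated populations they correlated at 0.38, -0.04 and -0.02. The labels do not say what a number stands for, so pairing was left unsettled. The main fit held no block, so its SEs and p-values take no pairing into account. The fit was tested on simulated data. Python 3.11.15 with pandas 2.3.3 and matplotlib 3.10.9 made the summaries and figures. Mitochondrial rRNA was not analysed here.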

Additional observations from a re-analysis of the deposited data

Results flagged for a closer look

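For 5 members the response to gentamicin differed between hair cells and non-hair cells when the difference itself was tested in limma. These are 3.95% of members with a higher and 2.63% with a lower response in hair cells, below the 6.85% and 6.56% of all genes tested, and 0 of the 5 calls held in every fit that left out a replicate. Mrpl1 rose more in hair cells by 0.67 on the log2 scale, with treated hair cell replicates at scores of 25.04–30.4 and treated non-hair cell replicates at 15.9–19.1. Mrps22 rose more in hair cells by 0.53, with treated replicates at 20.2–22.4 and 14.6–15.9. Mrps31 rose more by 0.48, with treated replicates at 25.2–26.7 and 16.5–19.9. The difference of the responses was -0.57 for Mrpl23, at 13.3–15.8 in treated hair cells and 29.3–36.0 in treated non-hair cells, and -0.53 for Mrpl41, at 19.7–22.9 and 29.3–34.2. In 2 of these genes, Mrpl23 and Mrpl41, the call was lost when scores were rescaled by total reads, and that of Mrps31 was lost with the replicate number as a block.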

How the results depend on the processing

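Signs were followed for the 29 named members in each of the 4 comparisons, 116 differences, of which 25 changed sign in some alternative, all of them uncalled. With total reads scaling and with voom, 23 members were called higher in hair cells after gentamicin in both, and 2 and 1 lower. Over all genes tested 17.2% were higher in both, and 9.89% and 8.48% lower. For the difference of responses both gave 7 higher and 0 lower, beside 9.32% and 8.34% of all genes higher and 4.45% and 3.64% lower. In hair cells Mrpl10 and Mrpl12 lost their calls under both, and Mrpl23 under voom. Median ratio scaling gave 28 members higher in control hair cells than in control non-hair cells, beside 35.1% of all genes tested. A fold change over 1.5 left 2 members higher and 1 lower in hair cells after gentamicin, and 0 higher in non-hair cells. It left 1 and 0 for the difference of responses, and 4 higher and 2 lower between control populations. The share of all genes tested at that fold change was not counted. In non-hair cells, the compared groups alone gave 0 higher, beside 1.43% of all genes tested. An adjusted p under 0.05 there also gave 0, beside 38 of all 16088 genes. Leaving out 1 replicate gave 2 to 4 members lower in hair cells, beside 10.3% to 13.4% of all genes tested. In non-hair cells it gave 1 to 8 higher and 0 to 1 lower, beside 1.58% to 4.54% and 0.976% to 5.22%. For the difference of responses it gave 0 to 4 higher and 0 to 4 lower, beside 4.18% to 7.20% and 3.00% to 7.57%. There, 0 were higher without hair cell control replicate 2 or hair cell gentamicin replicate 2, and 4 were lower without non-hair cell control replicate 1. With the replicate number as a block, 15 members were called higher and 5 lower in hair cells, and 5 and 0 in non-hair cells. That fit gave 2 and 3 for the difference of responses, and 16 and 15 between control populations. The shares of all genes tested were 12.6% and 16.1% in hair cells and 3.09% and 2.37% in non-hair cells. They were 6.93% and 7.39% for the difference of responses, and 30.4% and 41.2% between control populations. The block ended the calls of Mrps2 in hair cells and of Mrps31 for the difference of responses. Same-numbered control and treated replicates correlated at 0.04 to 0.05 in hair cells and -0.23 to 0.68 in non-hair cells. Whether they share more than a number is not given. The median of the members less that of all genes stayed positive for both gentamicin comparisons and between control populations in every alternative, but for the difference of responses it ranged from -0.06 to 0.09 over the fits that left out a replicate. The cause of these shifts was not tested.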
